A study of Mus musculus with 4 samples.

Results

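The nuclear genes for subunits of the mitochondrial respiratory chain and the ATP synthase were examined in activated mouse CD4+ T cells with and without Pdk4. Members were the gene symbols that match the names of complex I subunits (Ndufa, Ndufb, Ndufc, Ndufs and Ndufv), Sdhb, Sdhc and Sdhd of complex II, the Uqcr genes and Cyc1 of complex III, Cycs, the ubiquitous and tissue-specific Cox subunit genes of complex IV, and the Atp5 genes of complex V. This gave 84 members of 23238 symbols, namely 38 of complex I, 3 of complex II, 9 of complex III, cytochrome c, 16 of complex IV and 17 of complex V. Of these, 82 passed the filter on low counts and were tested, among 11464 tested genes. Cox4i2 and Cox7b2 did not pass. RNA came from 2 wild-type libraries and 2 libraries of the genotype labelled PDK4 KO, all given as C57BL/6j, from naive CD4+ T cells of spleen and lymph nodes kept for 48 hours in culture under stimulation of CD3 and CD28 with added IL-2. The labels give no age or sex, no description of the deleted allele, and no statement on whether replicates came from separate mice, so the p-values given here rest on a spread between libraries that may be a technical one.

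Complex I (NADH dehydrogenase) and complex II (succinate dehydrogenase) pass electrons to ubiquinone, complex III passes them on to cytochrome c, and complex IV (cytochrome c oxidase) passes them to oxygen. The protons pumped by complexes I, III and IV drive complex V, the ATP synthase. Most subunits are encoded in the nucleus, while a small core of complexes I, III, IV and V is encoded in mitochondrial DNA. T cells enlarge their mitochondria and their respiration after activation. Pdk4 encodes a kinase that inhibits the pyruvate dehydrogenase complex, which feeds this chain with electrons through the tricarboxylic acid cycle.

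Libraries held between 8837810 and 9739624 counts. Pdk4 had 1 and 0 counts in wild type and 0 and 2 in knockout, under a floor of 3 counts, so it says nothing about the labels. The 7 markers of CD4 T cells summed to between 1979 and 2034 CPM in the 4 libraries, and Cd4 itself lay between 251 and 269 CPM. Of the 7, Cd5 rose, from 284 and 266 CPM in wild type to 323 and 351 in knockout (adjusted p = 0.0341 by edgeR). Cd3d and Cd3g were lower in both knockout libraries and did not pass (0.273 and 0.359 by edgeR). The libraries of the genotypes overlapped in Cd4, Cd3e, Cd28 and Lck. Of 8 B cell markers, 7 were tested and 5 fell, and their summed level was 154 and 185 CPM in wild type and 97.1 and 112 in knockout, with Pax5 at 0 counts. Of 7 markers of CD8 T and NK cells, 6 were tested and 1 (Gzma) fell, with sums of 396 and 409 CPM in wild type and 241 and 233 in knockout. Without Gzma, a choice made after seeing the data, these sums were 177 and 190 CPM and 165 and 182 in knockout, which overlap, as did 4 of the 5 other tested markers. The exception, Cd8a, lay at 2.62 and 2.96 CPM in wild type and at 0.409 and 0.544 in knockout and did not pass the test (adjusted p = 0.119 by edgeR), while Cd8b1 lay at 23.2 and 16.4 CPM and at 11.7 and 20.5 in knockout. The 5 myeloid markers together reached at most 2.01 CPM. In bulk RNA, fewer cells of a type and less RNA per cell cannot be told apart, and the part of these other cells in the differences given here was not tested.

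Respiratory chain transcripts were slightly lower in knockout libraries across complexes I to V, and few single genes passed the test. By edgeR's quasi-likelihood F test, with p-values adjusted over all genes by the method of Benjamini and Hochberg, 4 of the 82 tested members changed, where 2.66% of all tested genes did. All 4, namely Ndufv3, Uqcrh, Atp5h and Ndufc1, fell, and 1.21% of all tested genes fell. Most members were abundant, and among the 3548 tested genes averaging 50 CPM or more, 4.93% changed and 2.09% fell. No member rose (0 of 82, against 1.45% of all tested genes), and 0 rose with DESeq2 or limma-voom. At an unadjusted p under 0.05, 18 members were lower and 0 were higher, where 6.68% and 6.8% of all genes were. The log2 fold change was below 0 in 65 of the 82 members (79.3%) and in 49.9% of all tested genes. Its median was -0.12 over the members and 0.00 over all tested genes.

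The differences were small. Of the 82 members, 47 differed by no more than 10% between genotypes, 31 were lower by more than 10% and 4 were higher by more than 10%. Differences of more than 20% were seen in 10 members, all lower in knockout. Of these, only Ndufv3 and Ndufc1 passed the test. Some rest on few counts per library, namely Cox7a1 (6 to 19), Atp5s (14 to 39) and Sdhd (57 to 95). The quartiles of the log2 fold change were -0.18 and 0.18 over all tested genes, and -0.11 and 0.11 over those averaging 50 CPM or more. The shares of all tested genes beyond 10% and 20% were not counted. In 43 members (52.4%) both knockout libraries lay below both wild-type libraries, and in 6 members above them, where 21.9% and 21.5% of all tested genes had such separation. The lowest of the 4 libraries was a knockout library in 62 members, knockout replicate 1 in 34 and knockout replicate 2 in 28, and each wild-type library was the lowest in 10. The lowest library was not counted over all tested genes. These counts come from the same values as the separation above and are no further evidence.

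The transcripts of most members were abundant, which sets the background they are read against. Levels are given as CPM, the counts scaled to the TMM-corrected size of the library. Because the libraries hold reads from the 3' ends of transcripts, CPM is a level per transcript and needs no correction for length. Of the 82 tested members, 68 had a mean of at least 50 CPM, as did 3548 of all tested genes, and the median log2 fold change of those 3548 was -0.00. Above 200 CPM, the 818 genes, 22 of them members, had a median of -0.04. Of these 818 genes, 8.92% were called and 5.38% fell. The log2 fold change was below 0 in 51.4% of the 3548 genes and in 60.1% of the 818.

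**Figure D1:**
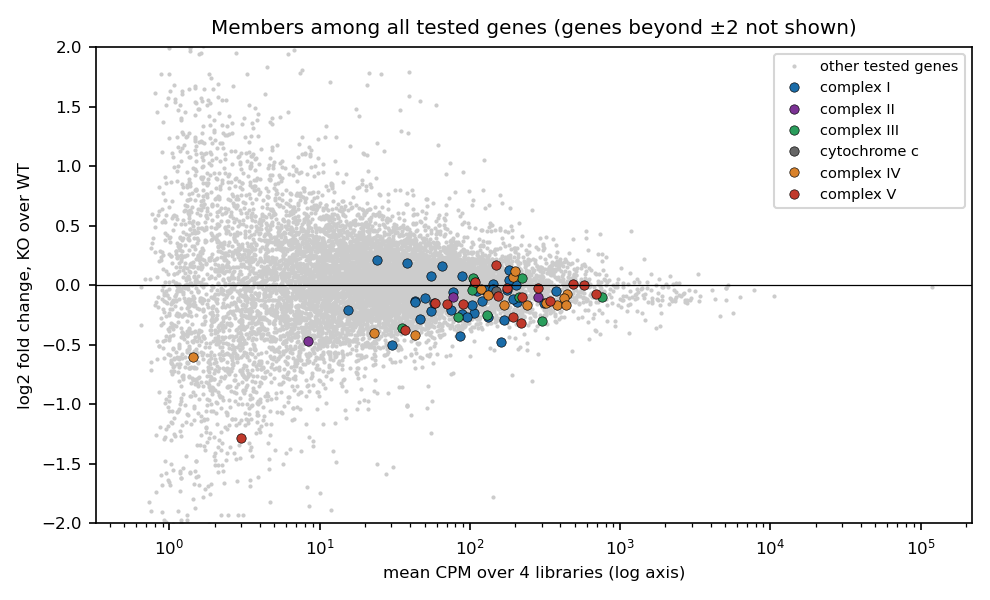
Mean level of each tested gene over the 4 libraries (CPM, log axis) against its log2 fold change of knockout over wild type, with members coloured by complex and the other tested genes in grey. Most members lie between 10 and 1000 CPM and under the line at 0, within the cloud of other genes at their level.

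Summed over its members, each complex was lower in both knockout libraries than in both wild-type libraries. This held for whole complexes and not for each of their parts or members. The 84 members together took 14271 and 14354 CPM in wild-type replicates 1 and 2, and 13409 and 13327 CPM in knockout replicates 1 and 2, a difference of -6.6%. The sums of complex I were 4537 and 4568 CPM in wild type and 4224 and 4246 in knockout (-6.99%). Complex II summed to 368 and 397 CPM in wild type and 358 and 351 in knockout (-7.25%), and its wild-type libraries differed from each other by more than its nearest wild-type and knockout libraries did. Complex III summed to 2039 and 2032 CPM, and to 1880 and 1857 in knockout (-8.2%). Complex IV summed to 3184 and 3284 CPM, and to 2985 and 3018 in knockout (-7.18%). Complex V summed to 3993 and 3919 CPM, and to 3815 and 3708 in knockout (-4.92%). These sums are descriptions and were not tested, and with 2 libraries against 2 a permutation of samples could not reach 0.05.

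**Figure D2:**
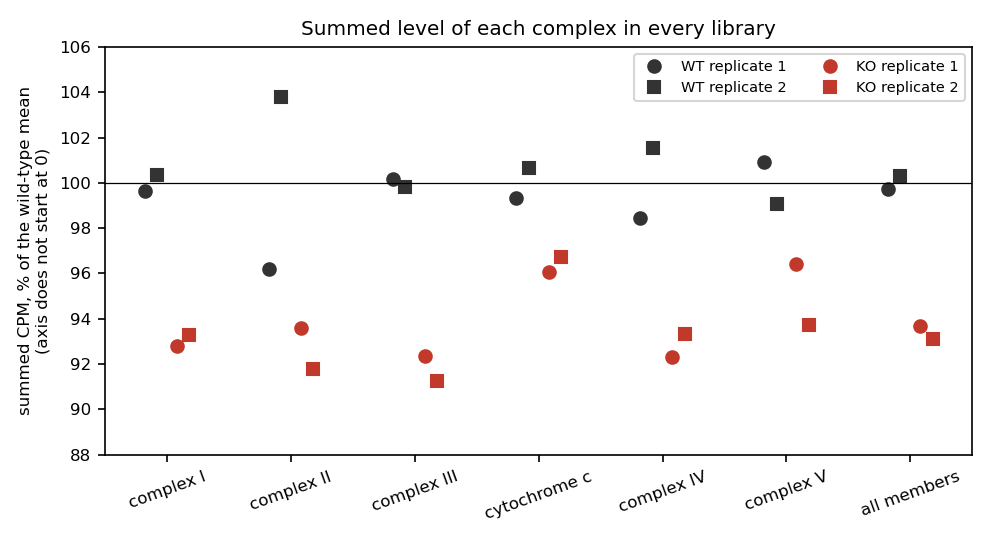
Summed CPM of the members of each complex in every library, as a percentage of the mean of both wild-type libraries (the axis does not start at 0). Circles are replicate 1 and squares replicate 2, black for wild type and red for knockout. The knockout libraries lie below both wild-type libraries in every complex.

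Complex I carried 2 of the 4 falls. Its 38 members, grouped by gene name and all tested, had a median log2 fold change of -0.13, with 28 below 0. They ranged from -0.50 to 0.21. The ends of this range are Ndufa4 and Ndufa4l2, which carry complex I names and are described below after complex IV. Ndufv3, a small accessory subunit of the NADH-oxidising end of the enzyme, had the smallest p of all members. It was at 186 and 190 CPM in wild-type replicates 1 and 2, and at 142 and 128 CPM in knockout replicates 1 and 2. The genotypes did not overlap, and the wild-type libraries lay close together. Its log2 fold change was -0.48 (SE 0.0931, adjusted p = 0.00171 by edgeR), and the gene lies on chromosome 17, 31520115 to 31531331 (GRCm38). Ndufc1, a small accessory subunit of the membrane arm, was at 102 and 94.7 CPM in wild type and at 68.2 and 77.7 CPM in knockout. These also did not overlap, and edgeR gave -0.43 for the log2 fold change (SE 0.117, adjusted p = 0.0366), and the gene lies on chromosome 3, 51404677 to 51408988. Without knockout replicate 2 the call of Ndufv3 was lost (adjusted p = 0.0654). Ndufc1 was not called on leaving out wild-type replicate 1 (0.199) or 2 (0.0845) or knockout replicate 1 (0.376), nor with upper quartile scaling (0.0513), library size only (0.0641), DESeq2 (0.0761) or a replicate block (0.0671).

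Of the complex I subunits that carry iron-sulfur clusters, Ndufs1 was at 63.9 and 55.1 CPM in wild type and 50.5 and 51.3 in knockout (-0.22, adjusted p = 0.501 by edgeR). Ndufs8 was at 63.5 and 60.5 CPM in wild type and 70.9 and 67.7 in knockout (0.16, 0.643). The groups were separate in both, in opposite directions, and neither gene passed the test. Of the other such subunits, Ndufv1 (-0.13) and Ndufs7 (-0.15) had overlapping groups. Ndufv2 (0.04) was slightly higher in both knockout libraries, and none of these passed. Among accessory subunits, Ndufa13 was at 185 and 187 CPM in wild type and 148 and 156 in knockout, without overlap, and did not pass (-0.29, adjusted p = 0.0839 by edgeR), except with the stricter filter (0.0458).

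Complex I members differed from each other 24.2-fold in level. Ndufa2 was the highest, at 374 and 385 CPM in wild type and 380 and 355 in knockout, followed by Ndufa6 with a mean of 313 and Ndufb8 with a mean of 207 CPM over the 4 libraries. Ndufab1, the mitochondrial acyl carrier protein, was the lowest, at 19.9 and 13.3 CPM in wild type and 18.2 and 10.3 in knockout. Its replicates differed more than its genotypes did. The 5 members whose knockout libraries both lay above wild type were Ndufa4l2, Ndufb2, Ndufb6, Ndufs8 and Ndufv2, named after their values were seen, with adjusted p between 0.643 and 0.918.

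**Figure D3:**
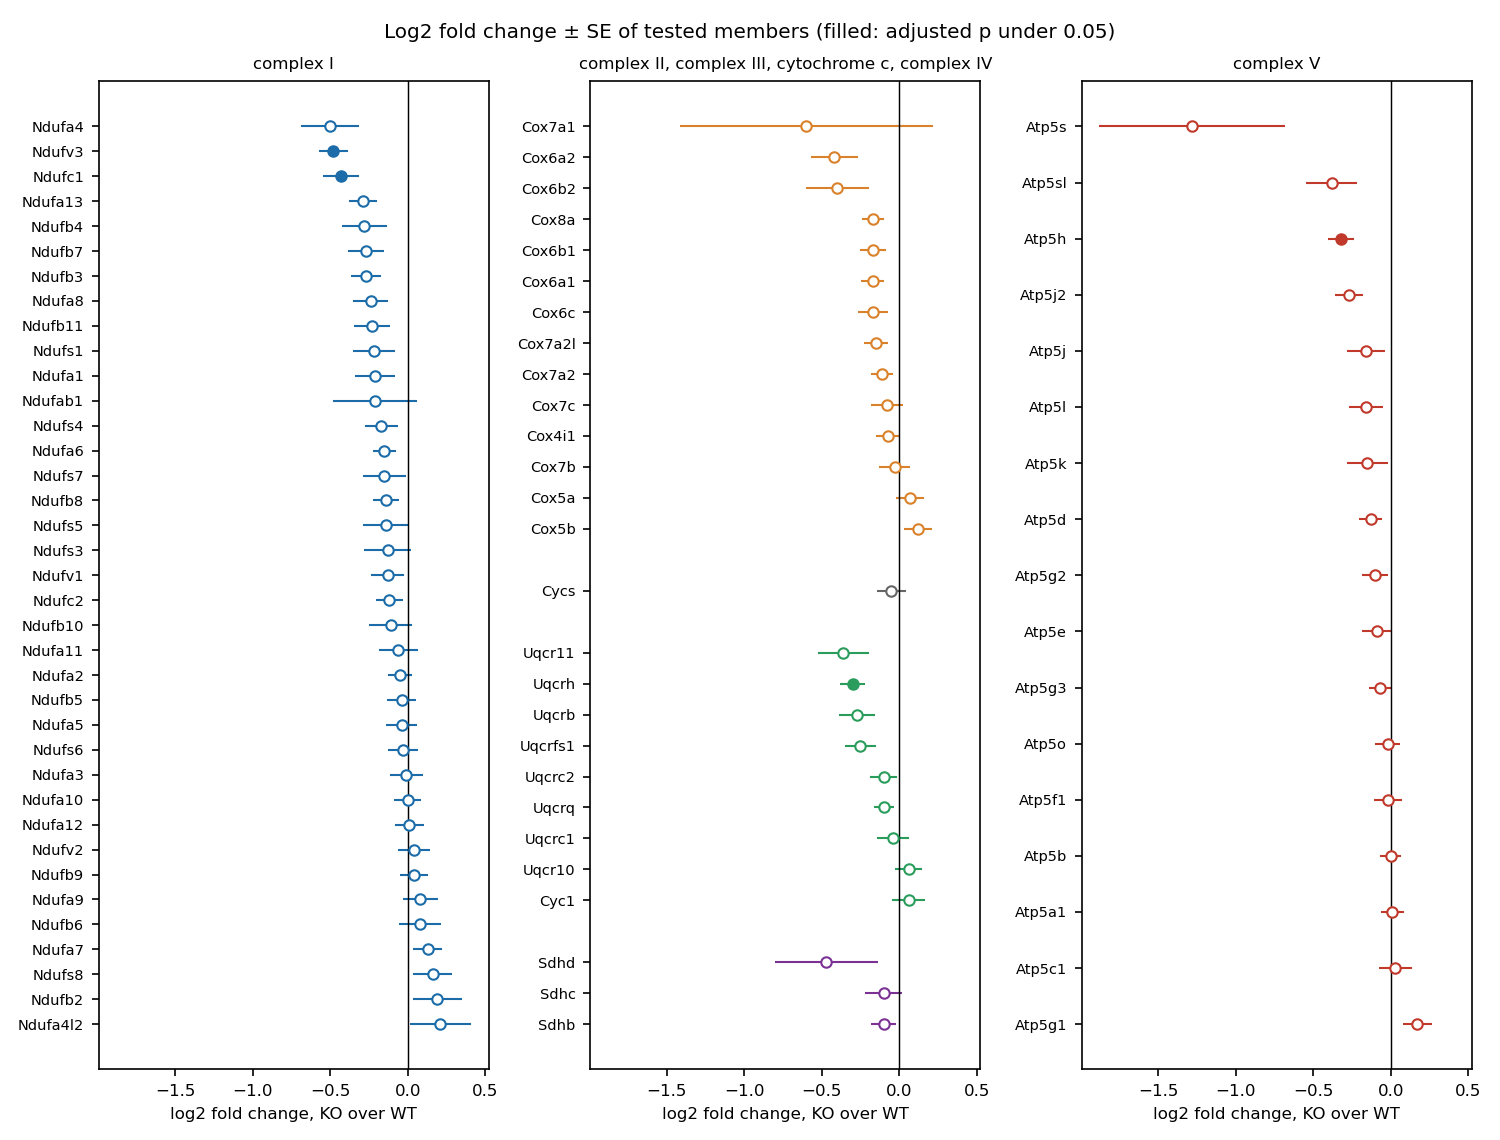
Log2 fold change of knockout over wild type with its standard error for the tested members, 1 of them left out, ordered within each complex; filled points passed the test at an adjusted p under 0.05. The 4 filled points (Ndufv3, Ndufc1, Uqcrh and Atp5h) lie left of 0, and most open points do too.

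Complex II, which is also an enzyme of the tricarboxylic acid cycle, had no member past the test (0 of 3, 0 at an unadjusted p under 0.05, and 0 with DESeq2 or limma-voom). Sdhb, its iron-sulfur subunit, was at 278 and 307 CPM in wild type and at 272 and 274 in knockout (log2 fold change -0.10, adjusted p = 0.66 by edgeR). Sdhc, a membrane anchor, was at 80.0 and 80.3 CPM in wild type and at 79.8 and 69.3 in knockout (-0.10, 0.791). Sdhd, the other membrane anchor, was far lower, at 9.33 and 10.0 CPM in wild type and 5.83 and 8.16 in knockout (-0.47, 0.596). In each of these genes both knockout libraries lay under both wild-type libraries, by margins smaller than the spread between replicates. Sdha, the flavoprotein that the choice of members leaves out, was at 212 and 208 CPM in wild type and 195 and 192 in knockout (-0.12, 0.612). The transcripts of the 4 partners thus spanned from 8.34 CPM for Sdhd to 283 CPM for Sdhb, as means over the 4 libraries. How many reads of Sdhd and of other low members were lost in alignment was not tested.

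Complex III had 1 fall among 9 members and a median log2 fold change of -0.10. Uqcrh, the acidic hinge protein beside cytochrome c1, was at 325 and 341 CPM in wild-type replicates 1 and 2 and at 284 and 258 CPM in knockout replicates 1 and 2. The groups did not overlap (-0.30, SE 0.0793, adjusted p = 0.0298 by edgeR), and the gene lies on chromosome 4, 116066965 to 116075071. Its call was lost when wild-type replicate 2 (0.211) was left out, and likewise for knockout replicate 1 (0.0635), for knockout replicate 2 (0.322) and with library size only (0.0557). A predicted gene on the other strand, Gm12854, overlaps Uqcrh, and the use of strand in counting is not given in the sources used here, so the value of Uqcrh is uncertain to that extent.

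The remaining complex III members did not pass. The Rieske iron-sulfur protein Uqcrfs1 was at 146 and 134 CPM in wild type and 110 and 125 in knockout (-0.25, adjusted p = 0.232 by edgeR), without overlap. Uqcrb, a small subunit near the quinone site, was at 92.4 and 89.7 CPM and at 71.2 and 79.4 in knockout (-0.27, 0.273). Uqcr11 was the lowest member, at 42.5 and 36.5 CPM in wild type and 31.3 and 30.4 in knockout (-0.36, 0.331). These 3 had separate groups but smaller differences, relative to their error, than Uqcrh. Uqcrq, a small subunit of the membrane part, had the highest level of all 84 members, at 783 and 795 CPM in wild type and 723 and 749 in knockout (-0.10, 0.538). The haem protein Cyc1 (0.06) and the small subunit Uqcr10 (0.06) had values on the other side of 0, and their groups overlapped. Cycs, the soluble cytochrome c that links complexes III and IV and also serves in apoptosis, was at 151 and 153 CPM in wild type and 146 and 147 in knockout (-0.05, 0.878).

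Complex IV had no member past the test among 14 tested (0 called, 3 at an unadjusted p under 0.05, all lower in knockout, and 0 with DESeq2 or limma-voom). Its median log2 fold change of -0.16 was lower than that of any other complex, and 12 of 14 members were below 0. The members with the smallest p were Cox6a2, Cox8a and Cox6a1. Cox8a, a small subunit of the ubiquitous enzyme, was at 469 and 457 CPM in wild type and 400 and 423 in knockout (-0.17, adjusted p = 0.271 by edgeR). Cox6a1 was at 389 and 413 CPM and at 369 and 346 in knockout (-0.17, 0.31). Both had separate groups. The highest member, Cox4i1, was at 418 and 482 CPM in wild type and 413 and 445 in knockout, which overlap (-0.07, 0.773). Cox5a (0.07) and Cox5b (0.12) had values above 0 with overlapping groups.

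Several complex IV subunits exist in a ubiquitous form and a tissue form, and the ubiquitous form gave most transcripts in each case. Cox4i2, a form known from lung and low oxygen, had 1 count in knockout replicate 2 and 0 in the other libraries, under the floor of 3 counts (0.308 to 0.339 CPM), beside 3678 to 4562 counts of Cox4i1. Cox7b2, a testis form, had 0 counts in all libraries. Cox7a1, the form of heart and skeletal muscle, lay between 0.653 and 2.01 CPM, at most 0.255% of the transcripts of Cox7a1, Cox7a2 and Cox7a2l together. Cox7a2 made up 56.5% ± 0.28 of these in wild type and 57.2% ± 2.02 in knockout, and Cox7a2l most of the rest (SD, n = 2 each).

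Other tissue forms were detected at clear levels. Cox6a2, the form of heart and skeletal muscle, was at 51.2 and 47.0 CPM in wild type and 39.4 and 34.0 in knockout, without overlap, and did not pass (-0.42, SE 0.152, adjusted p = 0.165 by edgeR). Of Cox6a1 and Cox6a2 together it took 10.9% ± 0.991 in wild type, against 9.29% ± 0.507 in knockout (SD, n = 2 each). Muscle and brown fat markers were near 0 in the same libraries, with Ucp1 at 0 counts, and Ckm, Acta1 and Myh6 summing with it to between 0.762 and 5.57 CPM. The opposite-strand gene Itgad overlaps Cox6a2 and was at 6.14 and 8.14 CPM in wild type and 4.60 and 3.81 in knockout. Cox6b2, a testis form, was at 26.7 and 25.4 CPM in wild type and 18.9 and 20.5 in knockout (-0.40, adjusted p = 0.382), or 9.3% ± 0.676 and 8% ± 0.556 of Cox6b1 and Cox6b2 together.

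**Figure D4:**
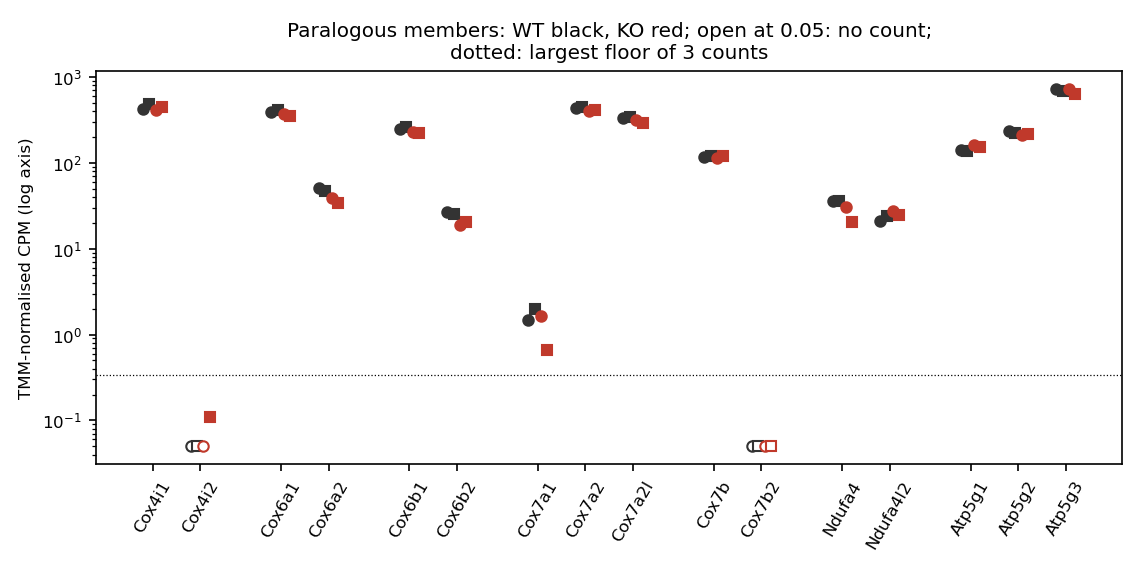
Level of each paralogous member in every library (CPM, log axis), wild type in black and knockout in red, with circles for replicate 1 and squares for replicate 2. Open symbols drawn at 0.05 had no count, and the dotted line marks the floor of 3 counts in the shallowest library. Cox4i2 and Cox7b2 lie under the line, and Cox6a2 and Cox6b2 lie well above it and well under Cox6a1 and Cox6b1.

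Ndufa4 carries a complex I name but is now counted among the subunits of complex IV, and Ndufa4l2 is its hypoxia-induced paralog. Ndufa4 was at 35.8 and 35.7 CPM in wild type and 30.2 and 20.4 in knockout. The groups did not overlap, but the knockout libraries differed from each other by more than knockout replicate 1 did from wild type (-0.50, SE 0.188, adjusted p = 0.189 by edgeR). Ndufa4 lies on chromosome 6 at 11900292 to 11907497, the chromosome of Pdk4 (5483351 to 5496309). The other members on chromosome 6, farther from Pdk4, were Ndufa5 (-0.04), Ndufb2 (0.19), Cycs (-0.05) and Ndufa9 (0.08), and none passed. Any link of these values to position was not tested. Ndufa4l2 was at 20.8 and 24.1 CPM in wild type and 27.5 and 24.5 in knockout (0.21, adjusted p = 0.718). Its 3' end overlaps that of Shmt2 on the opposite strand, which was at 347 and 337 CPM in wild type and 405 and 373 in knockout, so reads of Shmt2 may be counted in it and its value is uncertain.

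Complex V had 1 fall among 17 members and a median log2 fold change of -0.10. Atp5h, subunit d of the peripheral stalk that holds the catalytic head still, was at 244 and 242 CPM in wild-type replicates 1 and 2 and at 189 and 202 CPM in knockout replicates 1 and 2. The groups did not overlap (-0.32, SE 0.0846, adjusted p = 0.0335 by edgeR), and the gene lies on chromosome 11, 115415689 to 115419962. The predicted gene Gm10250 is near-identical to its 3' end, so its value is uncertain. Its call was lost when any library was left out. The adjusted p was 0.0981 and 0.129 on leaving out wild-type replicates 1 and 2, 0.351 and 0.0858 on leaving out knockout replicates 1 and 2, and 0.0614 with library size only.

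**Figure D5:**
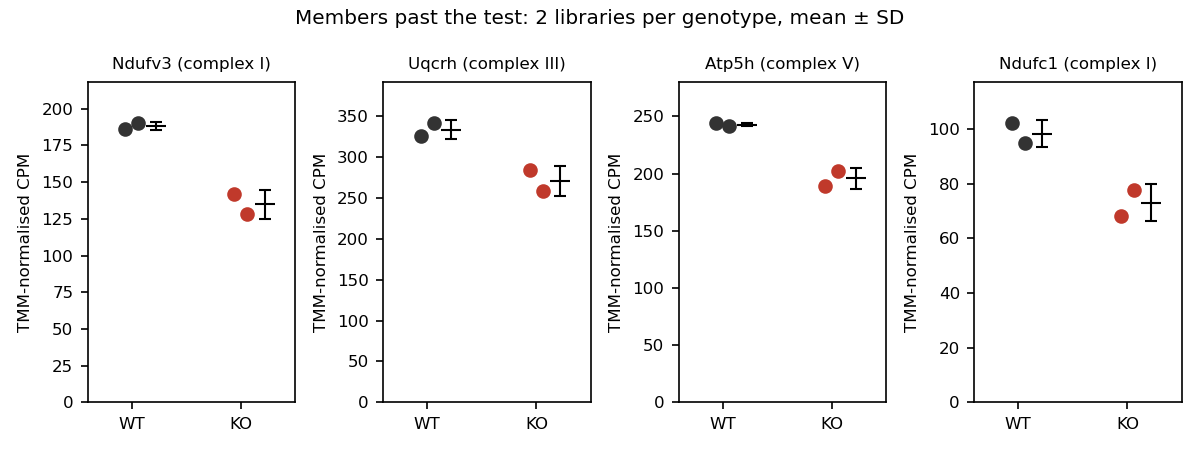
TMM-normalised CPM of the 4 members past the test, with 1 point per library and the mean ± SD of 2 libraries beside it. The wild-type libraries lie above the knockout libraries in each panel, and the axes start at 0.

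By parts of the ATP synthase, the 5 subunits of the F1 head, which holds the catalytic sites, summed to 1712 and 1651 CPM in wild type and 1650 and 1639 in knockout, with a median log2 fold change of -0.00. Atp5b, the catalytic beta subunit, was at 579 and 575 CPM in wild type and 587 and 565 in knockout, and Atp5a1, the alpha subunit, at 511 and 455 CPM and at 478 and 492. Both overlapped, and the sign of their differences changed with the scaling or the library left out. The 4 stalk members (Atp5f1, Atp5h, Atp5j and Atp5o) summed to 782 and 784 CPM in wild type and 731 and 711 in knockout. The membrane subunits Atp5j2, Atp5k and Atp5l summed to 355 and 384 CPM and to 312 and 321 in knockout, and none of the 3 passed (0 by edgeR, DESeq2 and limma-voom, with 1 at an unadjusted p under 0.05). Of these, Atp5j2, subunit f, was at 199 and 228 CPM in wild type and 169 and 185 in knockout (-0.27, adjusted p = 0.12 by edgeR), and it was called without wild-type replicate 1 (0.0327). The differences between these parts were not tested.

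The c subunit of the proton-driven ring is encoded by Atp5g1, Atp5g2 and Atp5g3, whose mature proteins are the same and whose import sequences differ. Atp5g3 gave most of their transcripts, at 720 and 694 CPM in wild type and 716 and 632 in knockout. Atp5g2 was at 233 and 225 CPM in wild type and 210 and 218 in knockout. Together the 3 genes summed to 1094 and 1057 CPM in wild type and 1089 and 1003 in knockout, which overlap. Atp5g1, at 142 and 139 CPM in wild type and 163 and 153 in knockout, had both knockout libraries above wild type and did not pass (0.17, SE 0.0935, adjusted p = 0.425 by edgeR). The share of Atp5g1 among the 3 transcripts was 13% ± 0.125 in wild type, against 15.1% ± 0.225 in knockout, and that of Atp5g3 was 65.7% ± 0.117 and 64.4% ± 1.94 (SD, n = 2 each). Atp5g1 and Atp5g2 have near-identical copies elsewhere in the annotation, so their values are uncertain.

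A pair of members carry an Atp5 symbol without being core parts of the enzyme. Atp5s, a coupling factor, was the lowest of the complex V members. It was at 4.32 and 4.12 CPM in wild type and 1.94 and 1.52 in knockout. These levels came from 38 and 39 counts against 19 and 14 (-1.28, SE 0.598, adjusted p = 0.336 by edgeR). Atp5sl, which the annotation now lists as Dmac2, takes part in building the membrane arm of complex I. It was at 46.0 and 37.4 CPM in wild type and 31.6 and 32.3 in knockout (-0.38, adjusted p = 0.277). Neither passed the test, although the groups were separate in both.

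Among genes that serve the chain without being subunits of it, 1 gene was called. Of 46 listed assembly factors of complexes I to V, 45 were tested, of which 1 rose and 0 fell, where 1.45% and 1.21% of all tested genes did. A single rise in a list of this size is near that share. At an unadjusted p under 0.05, 5 factors were higher and 3 lower, and 0 fell with DESeq2 or limma-voom. Their median log2 fold change was 0.04. The riser was Tmem70, which serves in the assembly of the ATP synthase, at 38.3 and 42.7 CPM in wild type and 64.1 and 55.4 in knockout (0.56, SE 0.143, adjusted p = 0.0231 by edgeR). Tmem70 was not called on leaving out wild-type replicate 1 (0.16) or 2 (0.0616) or knockout replicate 1 (0.299), nor with DESeq2 (0.0553).

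Of 10 tested genes of coenzyme Q synthesis and 11 tested nuclear regulators of respiratory genes, 0 were called by edgeR, DESeq2 or limma-voom (1 and 2 were higher and 0 and 0 lower at an unadjusted p under 0.05), with medians of 0.09 and 0.13. Nrf1, a factor that binds many respiratory gene promoters, was at 37.9 and 37.1 CPM in wild type and 44.9 and 53.5 in knockout, without overlap (0.39, adjusted p = 0.208 by edgeR). It was named after its values were seen, and 21.5% of all tested genes were likewise higher in both knockout libraries. So were the regulators Pprc1, Tfb1m and Tfb2m, while Esrra was lower in both. The groups overlapped in Gabpa, Gabpb1, Yy1, Tfam, Polrmt and Ppargc1b. The coactivator Ppargc1a had 0 counts in all libraries. The inhibitor Atpif1 and the carriers Slc25a3, Slc25a4 and Slc25a5, which exchange phosphate, ADP and ATP for the synthase, had a median of -0.07 with 0 of 4 called by edgeR, DESeq2 or limma-voom, and 1 was lower at an unadjusted p under 0.05. Differences between these lists and the subunits were not tested.

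The start regions of the 2 members with the smallest p are shown because both members moved the same way in the knockout, as the 250 bases before the RefSeq start on GRCm38.p6, 5' to 3' on the strand of the gene. Capitals mark matches, on either strand, to CCAAT, the core of the NF-Y site, or to CCGGAAG, a site of ETS factors such as GABP.
Ndufv3, chr17:31519865-31520114, plus strand: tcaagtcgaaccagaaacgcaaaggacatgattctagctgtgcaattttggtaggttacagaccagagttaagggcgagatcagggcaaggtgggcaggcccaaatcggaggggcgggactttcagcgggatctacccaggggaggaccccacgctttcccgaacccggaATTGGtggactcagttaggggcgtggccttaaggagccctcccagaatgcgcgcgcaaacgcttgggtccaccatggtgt
Uqcrh, chr4:116075071-116075320, minus strand: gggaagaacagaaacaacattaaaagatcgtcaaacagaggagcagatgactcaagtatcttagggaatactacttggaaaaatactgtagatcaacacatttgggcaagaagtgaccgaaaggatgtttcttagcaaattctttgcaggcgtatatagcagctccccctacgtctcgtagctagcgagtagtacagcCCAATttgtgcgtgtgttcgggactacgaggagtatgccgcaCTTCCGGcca
Ndufv3 holds 1 CCAAT match and no ETS match, and Uqcrh holds both kinds.

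Over all members, 69 of 84 matched the RefSeq promoter table, with 75 promoters. The ETS letters CCGGAAG, on either strand, were in 12 of these 75 (16%) and in 6.91% of all 32851 promoters of the same length. The letters GCGCATGC, a part of the NRF1 site, were in 9 of 75 (12%) and in 2.26% of all promoters. CCAAT was in 32 of 75 (42.7%) and in 33.8% of all, and the YY1 letters AAGATGGC were in 2 of 75 (2.67%) and in 1.56%. The promoter of Atp5h held CCAAT and ETS matches and that of Ndufc1 held none of the 4 motifs. These are matches of letters in a window and do not show binding.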

How the data were processed

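RNA of 2 wild-type and 2 knockout libraries was sequenced after QuantSeq (Lexogen) library construction, which per the labels' protocols used 500 ng of total RNA. The authors deposited raw counts per gene symbol, and the submitters' processing notes name Bowtie2, edgeR and mm10 without role or version. The sources used here do not give the counting tool, its annotation or its strand setting. Bowtie2 does not align reads across introns. For 35 symbols with several rows, none of them a member, the rows were summed. Depths were 8837810 and 9575879 counts (wild type), and 9739624 and 9104413 counts (knockout), where 3 counts are 0.308 to 0.339 CPM, covering counting error only. Rn45s took 11.6% to 12.3% of counts.

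All 11464 genes that passed filterByExpr were fitted in edgeR 4.0.16 (R 4.3.3) with TMM scaling, genotype as the only term and a two-sided quasi-likelihood F test. Benjamini-Hochberg adjusted p under 0.05 is called, and "rose" and "fell" are used for called genes. The standard error is the log2 fold change divided by the square root of F. Alternatives were other scalings, filters, DESeq2 1.42.0, limma-voom 3.58.1, a replicate block, leaving out Rn45s and leaving out each library. The rule for named genes took all called members, in each complex the 3 with the smallest p, the 3 highest and the lowest, those not tested, and paralogs. Other genes are said to have been named after their values were seen, or serve to show a complex, a neighbour or a marker. The members and lists were chosen with earlier results of these data known. Positions are from GENCODE vM21 (GRCm38), where all 84 members were found, 1 under another symbol. The values of 1 member are not reported here. The last 200 bases of each transcript were searched with blastn for copies of at least 95% identity over 75 bases, and 17 members had one. Their values are uncertain, as are those of 37 members that overlap another gene.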

Additional observations from a re-analysis of the deposited data

How the results depend on the processing

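Each of the 4 falls was lost when at least 1 library was left out, and those other than Ndufv3 were also lost with library size only. The number of members that fell was 1 with library size only, and ranged from 1 to 3 when 1 library was left out (3 with wild-type replicate 1 left out, 1 with each of the others). Complex I had 1 fall with upper quartile scaling, library size only, DESeq2 and the replicate block, and 1 without each library. Complexes III and V had 0 falls with library size only, and 0 to 1 when 1 library was left out. The cause was not tested. No member rose in any alternative run. Median log2 fold changes of the members stayed below 0 in every alternative, from -0.13 to -0.10 over all members.

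Ndufv3 kept its call in each alternative except without knockout replicate 2. Among all 82 tested members, 3 changed sign with upper quartile scaling, 3 with library size only, 1 with the stricter filter and 5 to 9 when 1 library was left out, and none of these was called. Log2 fold changes below 0 numbered 62 to 68 over the scalings and 58 to 67 when 1 library was left out, in place of 65. Of the members taken by the rule for named genes, Atp5a1 was at -0.00 with upper quartile scaling and Atp5b at 0.02 with library size only. With 1 library left out, those that crossed 0 ranged from -0.08 to 0.09 for Atp5a1, from -0.03 to 0.02 for Atp5b, from -0.16 to 0.02 for Atp5g3, from -0.17 to 0.03 for Cox4i1, from -0.10 to 0.00 for Ndufa2, from -0.68 to 0.13 for Ndufab1 and from -0.00 to 0.11 for Uqcr10.

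Labels give both genotypes the same replicate numbers, but deviations from the genotype means did not follow them (Pearson's r of 0.00285 across 11464 genes between wild-type and knockout replicate 1). With the replicate block, 3 members fell, and over all genes 260 were called in place of 305. Over all genes, leaving out wild-type replicate 2 gave 184 calls and leaving out knockout replicate 1 gave 170. Where 1 library was left out, the lone library of a genotype is assumed to vary like the others. Differences of the size seen in most members, under 10%, are near the standard errors of single genes at these depths.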
